A study of Mus musculus with 6 samples.

Results

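The proteasome subunit genes are the genes whose mouse symbol begins with Psma, Psmb, Psmc, Psmd or Psme followed by a digit. The inducible immunoproteasome subunits Psmb8, Psmb9 and Psmb10 and the pseudogene entries named -ps were left out by the same rule. This gave 42 of the 55487 genes in the count table, spread over 16 chromosomes. They comprised 16 genes of the core particle (8 of the alpha ring and 8 of the beta ring), 21 of the regulatory particle (7 ATPase and 14 non-ATPase) and 5 of the activators.

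Liver RNA was sequenced from 3 mice given GalNAc-siNC and 3 mice given GalNAc-siRnf10, with 1 library per mouse. All 6 were wild-type male C57BL/6J mice on normal chow, were injected under the skin, and had their livers collected at 17 weeks of age. GalNAc-siRnf10, called GalNAc-siRnf10-2 in the study, is an siRNA against the ubiquitin ligase gene Rnf10 joined to N-acetylgalactosamine, a sugar that hepatocytes take up through the asialoglycoprotein receptor, and GalNAc-siNC is the same kind of conjugate with a control sequence. The comparison was made by the study to look for unintended effects of the siRNA on other genes. The RNA came from whole liver, so fewer cells of a type and less RNA per cell cannot be told apart, and the p-values measure the spread between these mice only.

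The proteasome is the protease that degrades proteins tagged with ubiquitin in the cytosol and nucleus. Its core is a barrel of stacked rings, in which the outer alpha rings gate the entrance and the inner beta rings carry the protease sites. The regulatory particle binds the ubiquitin tag and unfolds the substrate with a ring of ATPases, and the activators open the core without ubiquitin. In many cells, shortage of proteasome activity raises the transcription of nearly all subunits together through Nfe2l1, which binds antioxidant response elements in their promoters.

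Total counts per library ranged from 26854377 to 33058645, and 14046 genes passed the filter on low counts and were tested with edgeR's quasi-likelihood test. A gene was called when its p-value, adjusted by the Benjamini-Hochberg method over all tested genes, was under 0.05. Rnf10, the targeted gene, had normalized counts of 3869, 4536 and 4040 with GalNAc-siNC and of 1738, 1821 and 1793 with GalNAc-siRnf10, which was 57.0% lower (log2 fold change -1.22, edgeR adjusted p = 3.29e-09). GalNAc-siNC mouse 1 stood apart from the other control mice for the proteasome genes, as described with the results. Of the hepatocyte markers, 6 of 8 were called higher with GalNAc-siRnf10. The summed level of the 8 was 58500 to 63359 CPM (counts scaled to the library total) in the control mice and 85837 to 87481 in the treated mice. The highest count of any of the 8 in a mouse was 1879205, so 1 gene made up most of the sum there. The 6 Kupffer cell markers were not called (148 to 168 against 151 to 158 CPM). Of 5 cholangiocyte markers 1, Spp1, was called lower (69.3 to 70.6 against 37.5 to 38.2 CPM summed over the 5). The highest count of any of these 5 in a mouse was 2134, so 1 gene made up most of the sum in that mouse. Of the other lists, 2 of 5 tested sinusoidal endothelial markers and 2 of 6 stellate cell markers were called higher. Only 1 of 4 neutrophil markers was tested, S100a9, and it was called lower. Only 1 of 5 lymphocyte markers was tested, and it was not called. No neutrophil marker had more than 46 counts in a mouse, and no lymphocyte marker more than 28. None of the 5 erythroid markers was called. None of the listed markers was at 0 in every mouse. The part of these marker differences in the results was not tested.

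The changes in the proteasome genes were mostly small. Of the 42 genes, 40 passed the filter. Of these, 3 were called, which is 7.5%, against a background of 14.0% of all tested genes. The beta ring subunit Psmb2 and the assembly chaperone Psmd5 were called higher, and the lid subunit Psmd3 was called lower. The share called higher was 6.71% and the share called lower was 7.28% over all tested genes, so that 2 and 1 of 40 proteasome genes were no more than the background. At an unadjusted p under 0.05 there were 8 proteasome genes of 40, 7 of them higher, beside 26.7% of all tested genes, with 12.9% higher. Without a filter on low counts the position against the background turned around: 9 of 41 proteasome genes were called, 8 higher and 1 lower, beside 9.33% of 24912 genes, which then included the genes with few counts.

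The fitted log2 fold change was positive in 30 and negative in 10 of the 40 genes, with a median of 0.06 beside a median of 0.0022 over all tested genes. The median size of the change, regardless of sign, was 0.095 for the proteasome genes and 0.18 for all tested genes. When normalized counts were compared mouse by mouse, all GalNAc-siRnf10 mice lay above all GalNAc-siNC mice in 10 genes and below them in 4, and the groups overlapped in 26. Over all tested genes the groups did not overlap in 32.8%, in 16.5% with the treated mice higher and in 16.4% with the treated mice lower. For each of these 14 proteasome genes the exact two-sided permutation test gave p = 0.1, the smallest that 3 mice against 3 allow.

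Of the genes that were not tested, Psmb11, the beta subunit of the thymus proteasome, had 0 counts in all 6 mice. A count of 0 allows a share of up to 1.12e-05% in the smallest library, and this limit covers counting error only. Psmc3ip, which the symbol rule places with the ATPase genes but which encodes a partner of meiotic recombination proteins and no proteasome subunit, had 6 to 15 counts. Its exons overlap those of Mlx on the opposite strand over 21.2% of their length, and since the strand setting of the counting is not given in the sources used here, its few counts cannot be assigned with certainty. The 3 genes taken as a check of the label, Psma1, Psmc1 and Psmd1, each had at least 2217 counts in every mouse and none of them was called.

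Levels of different genes were compared as normalized counts per kilobase of gene model. The gene model length is the summed exon length in the deposited table, so a gene with long rarely used exons appears lower than it is. In the control mice the highest levels were those of the alpha subunit Psma6, with 1931 ± 171 normalized counts per kilobase (SD, n = 3 mice), the beta subunit Psmb4, with 1740 ± 337, and the ATPase Psmc5, with 1522 ± 203. Over the control mice the range of Psmb4 overlapped those of Psma6 and Psmc5, and Psma6 lay above Psmc5 throughout. Psma2 was the lowest of the broadly expressed core subunits, with 483 ± 100. The chaperones that help build the base of the regulatory particle and then leave it lay below all its subunits among the 42 genes. Psmd9 had 115 ± 22.2, Psmd5 121 ± 6.47 and Psmd10 211 ± 8.80 normalized counts per kilobase. Psma8, the germ cell counterpart of Psma7, had 8.21 ± 1.13, next to 685 ± 82.3 for Psma7.

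**Figure D1:**
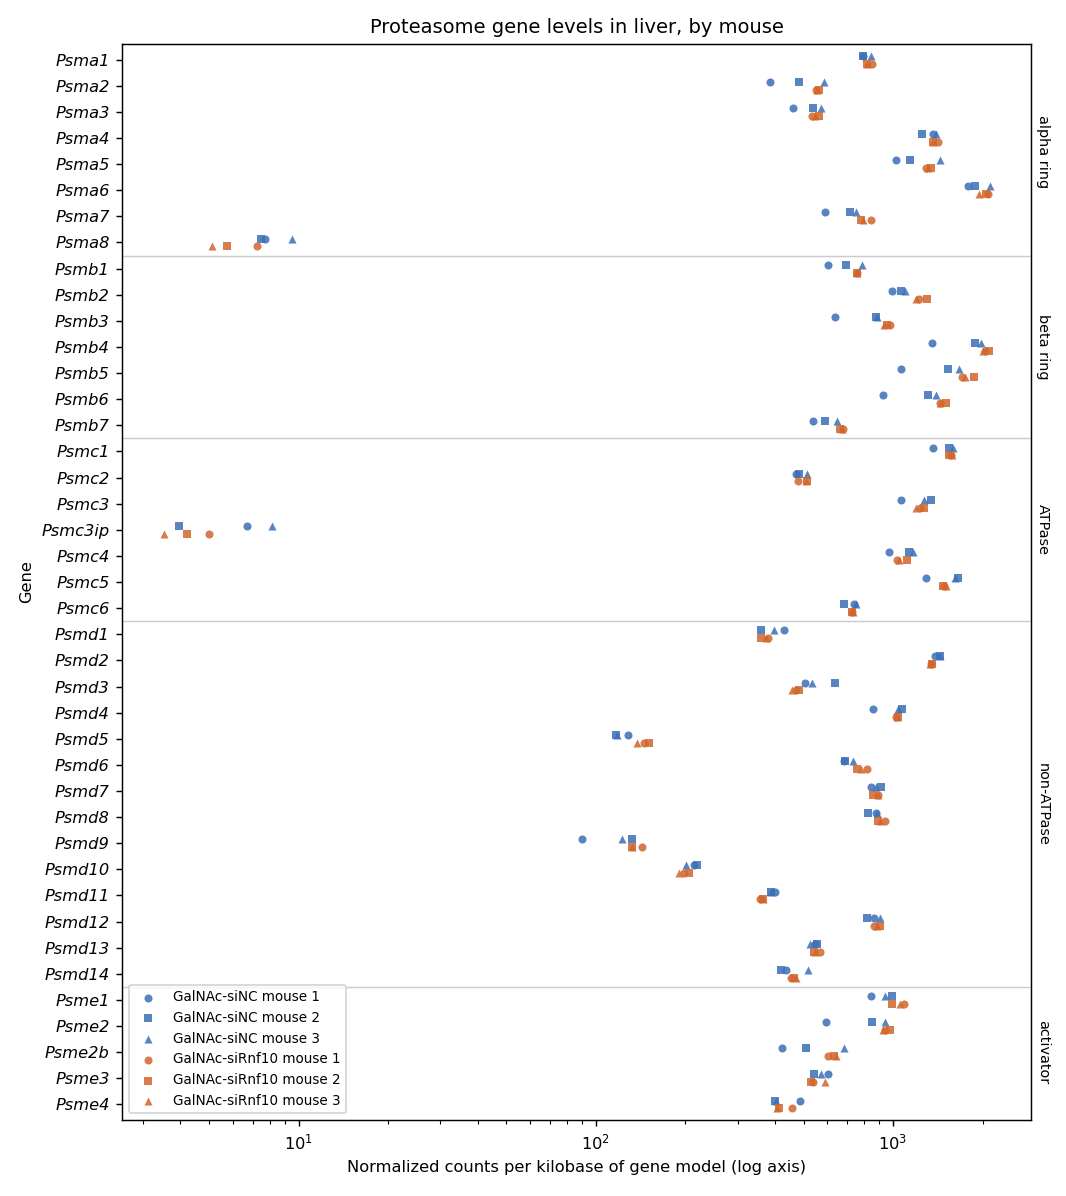
Normalized counts per kilobase of gene model (log axis) of 41 proteasome genes in each of the 6 mice, grouped by class; blue marks are GalNAc-siNC mice and orange marks GalNAc-siRnf10 mice, and Psmb11, with 0 counts, is not drawn. The germ cell gene Psma8 and Psmc3ip lie far below the rest, the assembly chaperones Psmd5, Psmd9 and Psmd10 come next, and GalNAc-siNC mouse 1 is the lowest mark for all 7 beta ring genes shown.

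Summed over the core genes, the level was 12518, 14776 and 16153 normalized counts per kilobase in the GalNAc-siNC mice and 16391, 16630 and 16094 in the GalNAc-siRnf10 mice. GalNAc-siNC mouse 1 was the lowest, and GalNAc-siNC mouse 3 lay among the treated mice. The ratio of the group means was 1.13. Summed over the regulatory particle genes, the level was 14162, 15428 and 15603 with GalNAc-siNC and 15105, 15157 and 15068 with GalNAc-siRnf10, a ratio of 1.003. Here all treated mice lay between GalNAc-siNC mouse 1 and GalNAc-siNC mouse 2.

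In the alpha ring, which holds the gate of the core, no gene of 8 was called. Its log2 fold changes were positive in 7 genes, with a median of 0.07. Psma7 had the highest, with normalized counts of 1818, 2197 and 2298 in the GalNAc-siNC mice and of 2582, 2388 and 2439 in the GalNAc-siRnf10 mice. The groups did not overlap, and GalNAc-siNC mouse 1 was the lowest. Its log2 fold change was 0.23 (standard error 0.0823, 95% interval from 0.06 to 0.40, edgeR adjusted p = 0.0742). Without GalNAc-siNC mouse 1 it was 0.13. Psma8 had the lowest log2 fold change, with 19.2, 18.6 and 23.7 normalized counts against 18.1, 14.3 and 12.8. All treated mice were below all control mice, at 12 to 24 raw counts per mouse, and the log2 fold change of -0.44 had an interval from -1.26 to 0.37 (edgeR adjusted p = 0.509). The other 6 alpha ring genes had overlapping groups and log2 fold changes from 0.03 for Psma1 to 0.21 for Psma2.

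The beta ring had the highest median log2 fold change of the classes, 0.24, with 7 of 7 tested genes positive. All treated mice were above all control mice in 6 of them, Psmb2, Psmb3, Psmb4, Psmb5, Psmb6 and Psmb7, beside 16.5% of all tested genes. GalNAc-siNC mouse 1 was the lowest mouse in all 7, and without it the median was 0.11. Only Psmb2 was called. Psmb2 (ENSMUSG00000028837), on chromosome 4 of GRCm38 from 126677630 to 126709714 on the plus strand, encodes a subunit without a protease site. Its normalized counts were 1192, 1280 and 1318 in the GalNAc-siNC mice and 1474, 1565 and 1440 in the GalNAc-siRnf10 mice. The groups did not overlap, and the spread was alike in both. The log2 fold change was 0.24 (standard error 0.0741, 95% interval from 0.09 to 0.40, edgeR adjusted p = 0.0380), and it was 0.20 without GalNAc-siNC mouse 1 (edgeR adjusted p = 0.0353). The call was lost when GalNAc-siRnf10 mouse 1, 2 or 3 was left out, at edgeR adjusted p-values of 0.124, 0.205 and 0.0922. With a adjustment for GC content and length, its log2 fold change was 0.07 (edgeR adjusted p = 0.482).

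The protease sites of the core lie in Psmb5, which cuts after hydrophobic residues, Psmb6, which cuts after acidic residues, and Psmb7, which cuts after basic residues. In the fit on all 6 mice Psmb5 had the highest log2 fold change of the 40 genes, but it came after Psmd5 and Psmb2 without GalNAc-siNC mouse 1, and after Psmd9 and Psmd5 with the adjustment for GC content and length. Its normalized counts were 957, 1378 and 1499 in the GalNAc-siNC mice and 1533, 1679 and 1573 in the GalNAc-siRnf10 mice. The groups did not overlap, but GalNAc-siNC mouse 1 was farther from the other control mice than those were from the treated mice. The log2 fold change was 0.32 with an interval from -0.05 to 0.69 (edgeR adjusted p = 0.244), and 0.15 without GalNAc-siNC mouse 1 (edgeR adjusted p = 0.131). It was called with the adjustment for GC content and length, at a log2 fold change of 0.23 (edgeR adjusted p = 0.0187), and without GalNAc-siNC mouse 3, at 0.45 (edgeR adjusted p = 0.0488). Psmb6 and Psmb7 had log2 fold changes of 0.27 and 0.18, and 0.11 each without GalNAc-siNC mouse 1. The structural subunits Psmb3 and Psmb4 had 0.26 and 0.23, and 0.12 and 0.08 without that mouse. Psmb1, a subunit without a protease site, had the lowest log2 fold change of the class, with 2766, 3184 and 3620 normalized counts against 3481, 3476 and 3486. The groups overlapped, with GalNAc-siNC mouse 3 the highest of the 6, and the log2 fold change was 0.13 (edgeR adjusted p = 0.351).

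The ATPase genes, whose products form the ring that unfolds substrates, had the smallest changes, with a median size of 0.034 on the log2 scale. None of 6 tested genes was called, none had groups that did not overlap, and their median log2 fold change was 0.0075. Psmc1 was the highest, with normalized counts of 2631, 2976 and 3082 in the GalNAc-siNC mice and of 3028, 2986 and 3054 in the GalNAc-siRnf10 mice. The treated mice lay within the range of the control mice. Its log2 fold change was 0.06 (95% interval from -0.09 to 0.21, edgeR adjusted p = 0.625), and it turned to -0.0046 without GalNAc-siNC mouse 1. Psmc4 was the lowest, with 2096, 2456 and 2530 against 2222, 2416 and 2274. Here too the treated mice lay within the control range, and the log2 fold change was -0.03 (95% interval from -0.20 to 0.13, edgeR adjusted p = 0.822). Psmc2, Psmc3, Psmc5 and Psmc6 had log2 fold changes from -0.03 to 0.04.

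The 14 non-ATPase genes encode the lid, the rest of the base and the assembly chaperones Psmd5, Psmd9 and Psmd10. Of them, 1 was called higher and 1 lower, with a median log2 fold change of 0.02. Psmd5 (ENSMUSG00000026869), on chromosome 2 from 34849734 to 34874968 on the minus strand, encodes an assembly chaperone of the base that binds the ATPase Psmc2. Its normalized counts were 929, 844 and 853 in the GalNAc-siNC mice and 1048, 1093 and 995 in the GalNAc-siRnf10 mice. All treated mice were above all control mice, and GalNAc-siNC mouse 1 was here the highest control. The log2 fold change was 0.26 (standard error 0.0801, 95% interval from 0.09 to 0.43, edgeR adjusted p = 0.0422), and 0.30 without GalNAc-siNC mouse 1 (edgeR adjusted p = 0.00445). The call was lost without GalNAc-siNC mouse 2 or 3 (edgeR adjusted p = 0.0967 and 0.108) and without GalNAc-siRnf10 mouse 1, 2 or 3 (edgeR adjusted p = 0.148, 0.203 and 0.0838).

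Psmd3 (ENSMUSG00000017221), on chromosome 11 from 98682554 to 98695979 on the plus strand, encodes a structural subunit of the lid. Its normalized counts were 2510, 3159 and 2641 in the GalNAc-siNC mice and 2333, 2390 and 2272 in the GalNAc-siRnf10 mice. All treated mice were below all control mice, and GalNAc-siNC mouse 2 was well above the other controls. The log2 fold change was -0.25 (standard error 0.0803, 95% interval from -0.42 to -0.08, edgeR adjusted p = 0.0492). Without GalNAc-siNC mouse 2 it was -0.15 and was not called (edgeR adjusted p = 0.175), nor was it called without GalNAc-siNC mouse 3 (-0.28, edgeR adjusted p = 0.0589) or without GalNAc-siRnf10 mouse 1, 2 or 3 (edgeR adjusted p = 0.170, 0.127 and 0.200). The adjustment for GC content and length moved it to -0.12 (edgeR adjusted p = 0.120). DESeq2 called neither Psmd5 nor Psmd3 (DESeq2 adjusted p = 0.0522 and 0.0617).

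Among the other 12 non-ATPase genes, the groups did not overlap in Psmd6 and Psmd8 (treated mice higher, log2 fold changes 0.16 and 0.08) and in Psmd2 and Psmd11 (treated mice lower, -0.08 and -0.12). The deubiquitinase Psmd14 and the ubiquitin receptor Psmd4 had log2 fold changes of 0.01 and 0.06, and neither was called. Psmd9 and Psmd10, the chaperones beside Psmd5, had log2 fold changes of 0.24 and -0.09 and were not called. The scaffold and lid genes Psmd1, Psmd7, Psmd12 and Psmd13 had overlapping groups and log2 fold changes from -0.10 to 0.04.

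**Figure D2:**
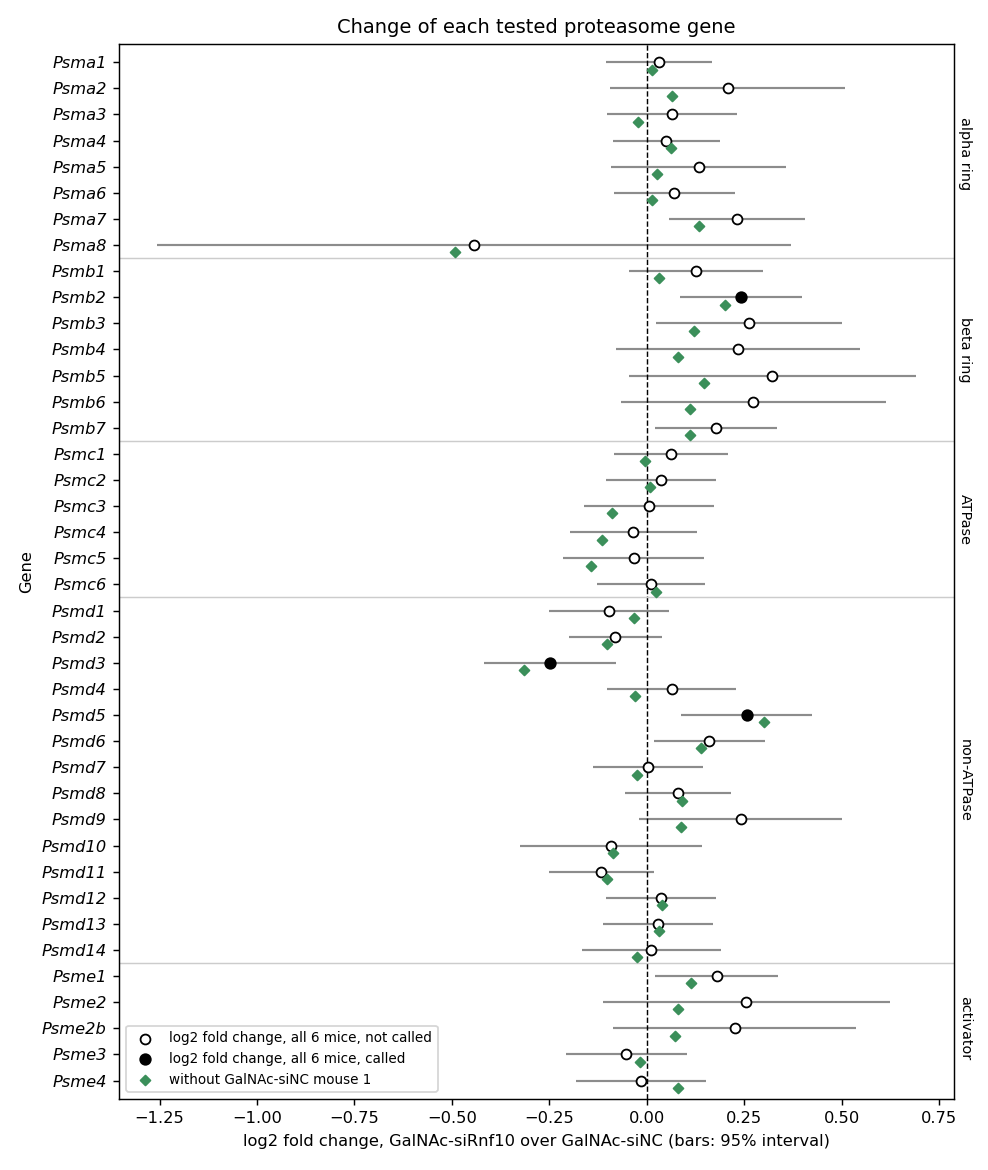
Log2 fold change of GalNAc-siRnf10 over GalNAc-siNC for each of the 40 tested proteasome genes, by class; circles are the fit on all 6 mice with its 95% interval, filled where called (Psmb2, Psmd3 and Psmd5), and green diamonds are the fit without GalNAc-siNC mouse 1. The 7 beta ring genes lie right of 0 in both fits and move toward 0 in the second.

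None of the 5 activator genes was called, and their median log2 fold change was 0.18. Psme1 and Psme2 encode the interferon-inducible activator ring. Psme2 had the highest log2 fold change, with normalized counts of 1049, 1504 and 1651 in the GalNAc-siNC mice and of 1654, 1729 and 1627 in the GalNAc-siRnf10 mice. The groups overlapped in GalNAc-siNC mouse 3, and GalNAc-siNC mouse 1 was far below the other 5 mice. Its log2 fold change was 0.25 (95% interval from -0.11 to 0.62, edgeR adjusted p = 0.359), and 0.08 without GalNAc-siNC mouse 1. Psme3, the nuclear activator, had the lowest, with 1778, 1603 and 1692 against 1589, 1565 and 1739. The groups overlapped, and the log2 fold change was -0.05 (95% interval from -0.21 to 0.10, edgeR adjusted p = 0.703). Psme1, Psme2b and Psme4 had log2 fold changes of 0.18, 0.23 and -0.02.

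GalNAc-siNC mouse 1 had the lowest normalized count of the 6 mice in 25 of the 40 genes, among them 7 of 7 in the beta ring, 6 of 8 in the alpha ring, 5 of 6 ATPase genes, 4 of 14 non-ATPase genes and 3 of 5 activator genes. Over all tested genes it was the lowest in 3378 of 14046. Set against the mean of the other control mice on the log2 scale, its median difference was -0.18 over the 40 genes and -0.0015 over all tested genes. By class it was -0.47 in the beta ring, -0.22 in the alpha ring, -0.23 in the ATPase genes, -0.02 in the non-ATPase genes and -0.20 in the activator genes. Without this mouse, the class medians of the treatment log2 fold change were 0.02 for the alpha ring, 0.11 for the beta ring, -0.05 for the ATPase genes, -0.03 for the non-ATPase genes and 0.08 for the activators. The beta ring stayed positive in 7 of 7 genes, and Psmb2, Psmd5 and Psmd3 were the genes called, 3 of 40 beside a background of 20% of tested genes (2864 of 14343) in that fit.

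**Figure D3:**
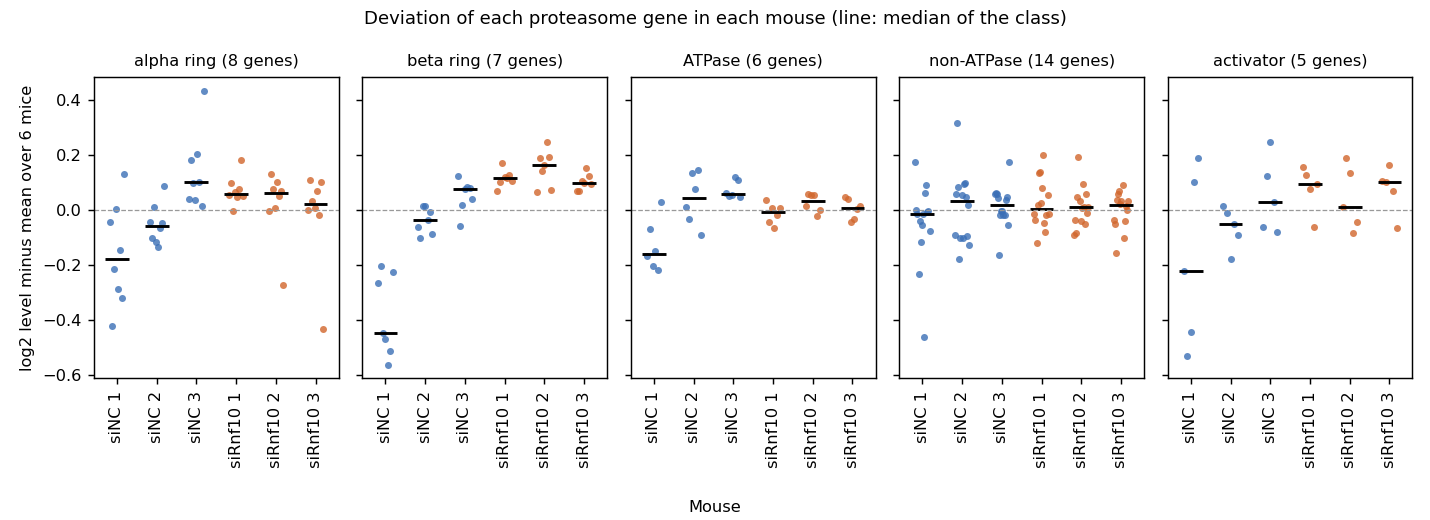
Log2 normalized count of each tested proteasome gene in each mouse minus its mean over the 6 mice, in 1 panel per class; points are genes, black lines the median of the class, blue GalNAc-siNC and orange GalNAc-siRnf10. The beta ring median of GalNAc-siNC mouse 1 is -0.45, against -0.04 and 0.08 in the other control mice and 0.12, 0.16 and 0.10 in the treated mice.

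The deviation of GalNAc-siNC mouse 1 from the other control mice went with gene length and with GC content. Across the 40 proteasome genes, Spearman's rho was 0.47 with gene model length and -0.42 with GC content, and across all tested genes with a GC value it was 0.31 and -0.41. These are correlations across genes of the same 3 libraries, so the genes are not independent replicates. The median gene model was 1951 bases long in the tested beta ring genes, 2209 in the activators and 2385 in the ATPase genes. It was 2723 bases in the alpha ring genes, 3217 bases in the non-ATPase genes and 4122.5 bases in all tested genes. With the adjustment for GC content and length the class medians were 0.15 for the beta ring, -0.03 for the alpha ring, -0.04 for the ATPase genes, -0.03 for the non-ATPase genes and 0.03 for the activators, and Psma7, Psmb5 and Psmd5 were called higher and Psmc5 lower. The part of length and GC content in the difference between the groups was not tested.

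**Figure D4:**
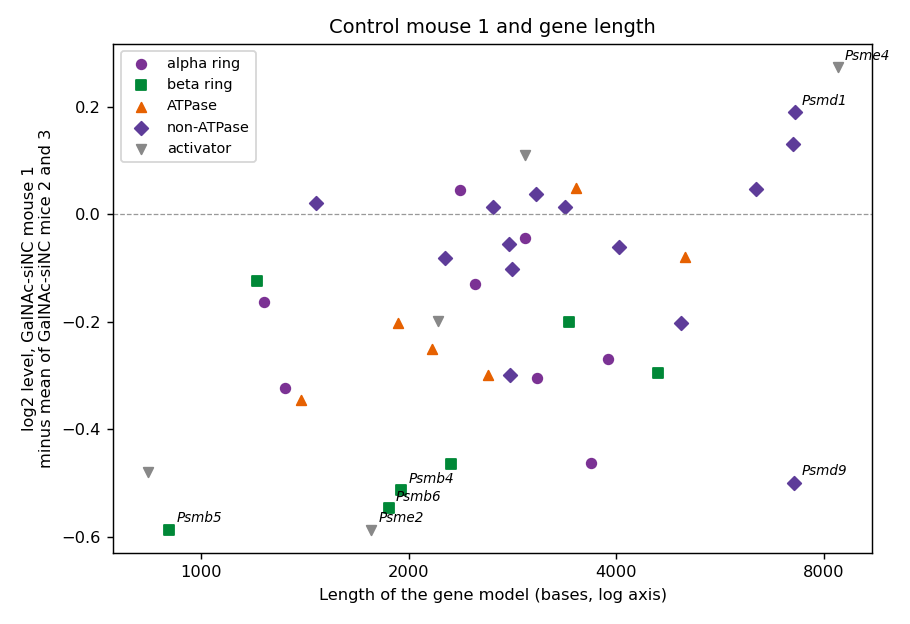
Log2 normalized count of GalNAc-siNC mouse 1 minus the mean of GalNAc-siNC mice 2 and 3, against the length of the gene model in bases (log axis), for the 40 tested proteasome genes; each mark is a gene, shaped by class. Psmb4, Psmb5, Psmb6 and Psme2, with models of 899 to 1951 bases, are among the lowest, Psmd1 and Psme4 at the long end lie above 0, and Psmd9 is long and low (rho = 0.47 over the 40 genes).

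Reads of some members may be shared with other genes. Of the 75-base runs in the exons of Psmb5, 36.8% also occur in another annotated gene, mainly the pseudogene Gm3375 with 30 to 79 counts. The share was 35.2% for Psma5 (Gm12989 and Gm8394) and 14.4% for Psma3 (Gm13835, with 940 to 1242 counts). It was 22.9% for Psme2 and 60.2% for Psme2b, which share runs with each other. These are shares of exon sequence and not of reads, and how far the counts of these 5 genes are affected was not tested. On the opposite strand, Nek6, with 1606 to 3014 counts, overlaps 405 bases of the exons of Psmb7, and Sirt3, with 1324 to 1728 counts, overlaps 342 bases of Psmd13. Psmb2 and Psmd5 had no such run and no exon overlap with another gene, and Psmd3 shared 17 bases with Gm12356, which had 0 to 3 counts.

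To show the promoter letters that Nfe2l1 is known to bind, the core of the antioxidant response element, TGACNNNGC with N for any base, was searched on both strands of RefSeq promoter windows (GRCm38.p6, 250 bases before to 50 after the start of transcription). Windows were found for 35 of the 42 genes, in 38 entries, and none for Psma8, Psmb1, Psmb2, Psmb7, Psmc3, Psmd3 and Psmd7. The core occurred in 6 of the 38 entries (15.8%) and in 12.4% of all 32851 entries. Each match is printed with up to 10 bases on either side, on the strand of the gene and with the matching bases in capitals. The windows lie at chr14:54618024-54618052 on the minus strand for Psmb5 and, on the plus strand, at chr11:70525338-70525366 for Psmb6, chr14:45329587-45329615 for Psmc6, chr11:107479278-107479299 for Psmd12, chr5:123228149-123228177 for Psmd9 and chr11:30771758-30771786 for Psme4.
Psmb5: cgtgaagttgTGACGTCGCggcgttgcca
Psmb6: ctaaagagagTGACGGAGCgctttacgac
Psmd9: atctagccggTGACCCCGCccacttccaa
Psmc6: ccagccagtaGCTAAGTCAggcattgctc
Psmd12: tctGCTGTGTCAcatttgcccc
Psme4: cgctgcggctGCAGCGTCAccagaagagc

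In Psmb5, Psmb6 and Psmd9 the core reads along the strand of the gene, and in Psmc6, Psmd12 and Psme4 it reads on the opposite strand, so its reverse complement is in capitals. Counted along the gene, with the first transcribed base as 1 and the base before it as -1, the match begins at -47 in Psmb5, -9 in Psmb6, -31 in Psmd9, -227 in Psmc6, -247 in Psmd12 and -7 in Psme4. The genes with the core had a median log2 fold change of 0.14, and the tested genes whose windows lack it had one of 0.06. Without GalNAc-siNC mouse 1 these medians were 0.08 and 0.01. None of the 6 was called. Psmb5, Psmb6 and Psmd9 had log2 fold changes of 0.32, 0.27 and 0.24, and Psmc6, Psmd12 and Psme4 had 0.01, 0.04 and -0.02. In the fit without GalNAc-siNC mouse 1 the same genes had 0.15, 0.11 and 0.09, and 0.02, 0.04 and 0.08. A link of the change with the strand of the core was not tested. The letters CCAAT, the core of another common promoter element, were found on either strand in 14 of the 38 entries (36.8%) and in 37.4% of all entries. Tested genes with CCAAT had a median log2 fold change of 0.06, and those whose windows lack it had one of 0.08. Without GalNAc-siNC mouse 1 the CCAAT medians were 0.0016 and 0.07. A match describes these letters only, and factor binding was not measured.

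The genes that build, feed and control the proteasome were described from a list of 41, of which 40 were found in the table by symbol and all of these were tested. Of these, 1 was called higher and 1 lower, which is 5% beside the 14.0% of all tested genes. Ubqln4, a shuttle that carries ubiquitin-tagged proteins to the proteasome, had normalized counts of 751, 820 and 778 in the GalNAc-siNC mice and of 1008, 890 and 994 in the GalNAc-siRnf10 mice. All treated mice were above all control mice, and the log2 fold change was 0.30 (standard error 0.0835, edgeR adjusted p = 0.0226). It was not called without GalNAc-siNC mouse 3 (edgeR adjusted p = 0.0605) or without GalNAc-siRnf10 mouse 1 or 3 (edgeR adjusted p = 0.137 and 0.121).

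Syvn1, the ubiquitin ligase of the endoplasmic reticulum membrane, had 2445, 2304 and 2163 normalized counts with GalNAc-siNC and 1851, 1977 and 1786 with GalNAc-siRnf10. All treated mice were below all control mice, with a log2 fold change of -0.30 (standard error 0.0719, edgeR adjusted p = 0.00929). The call was lost without GalNAc-siRnf10 mouse 1 or 3 (edgeR adjusted p = 0.0722 and 0.0885) and with the adjustment for GC content and length (-0.18, edgeR adjusted p = 0.0875).

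By role, none of 5 assembly factors, 13 partners and 3 immunoproteasome subunits was called, 1 of 8 genes of transcription control and processing was called (Syvn1), and 1 of 11 shuttle and ubiquitin genes (Ubqln4). The 5 assembly factors, Pomp and Psmg1 to Psmg4, had positive log2 fold changes with a median of 0.21, and of 0.06 without GalNAc-siNC mouse 1, which was the lowest of the 6 mice in 4 of them. Nfe2l1 itself had a log2 fold change of -0.10 (edgeR adjusted p = 0.386). Without GalNAc-siNC mouse 1, 6 of the 40 list genes were called, 1 higher and 5 lower, and the 5 lower included Nfe2l1 (-0.16, edgeR adjusted p = 0.0419) and the immunoproteasome subunit Psmb10 (-0.26, edgeR adjusted p = 0.0123).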

How the data were processed

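Per the labels and the methods of the study, the authors prepared stranded mRNA libraries from liver, sequenced paired-end reads, and used HISAT2 on mm10/GRCm38. The values deposited by the authors are raw counts, not normalized, next to the summed exon length of each gene model. The submitters' processing notes also name DESeq2. The counting tool, annotation release and strand setting are not given in the sources used here. Groups were taken from the sample labels.

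Counts were analysed in R 4.3.3 with edgeR 4.0.16 (filterByExpr, TMM normalization, robust quasi-likelihood F-test, 2-sided, treatment as the only term, Benjamini-Hochberg adjustment over all 14046 tested genes). Normalized counts are counts scaled to the mean effective library size. The smallest share of a library that could be shown, 3 counts, was 9.07e-06% to 1.12e-05%. The biological coefficient of variation was 9.28%. Libraries of a group differed by more than sampling noise (chi-square per gene 4.70 to 30.8 over 6 pairs). Gene symbols, exons and sequences came from GENCODE M21 (GRCm38), promoter windows from RefSeq. The fit was tested on simulated data. Alternatives used DESeq2 1.42.0, limma 3.58.1, other normalizations and filters, offsets for GC content and gene length (splines with 5 degrees of freedom), other thresholds, a block for the replicate number and leaving out each mouse. Figures were drawn with matplotlib 3.10.9.

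The proteasome genes, the pathway list and the tests were chosen with earlier results of these data known. Values in every mouse are given for called members and, in each class, for the members with the highest and the lowest log2 fold change. The remaining names were chosen after seeing values.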

Additional observations from a re-analysis of the deposited data

How the results depend on the processing

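The median log2 fold change of the proteasome genes was 0.06 in the main fit and 0.01 to 0.10 over 16 alternatives. The lowest, 0.010, came with the adjustment for GC content and length. These shifts were within the standard deviation between replicates, 0.10, but that was larger than the main median itself, so it is a wide measure. The Rnf10 call held in all 16. The small number of called proteasome genes did not hold its size. Against 2 higher and 1 lower, upper quartile normalization gave 1 higher, no filter on low counts 8 higher (9 of 41 called in all, beside 9.33% of all genes), DESeq2 1 higher and 0 lower, the adjustment for GC content and length 3 higher and 1 lower, the same adjustment with the replicate block 3 higher and 0 lower, and an adjusted p under 0.01 gave 0 higher and 0 lower, with 1042 of all tested genes called instead of 1965. With each mouse left out in turn, 0 to 6 proteasome genes were called higher and 0 to 1 lower, 0 to 6 of the other pathway genes were called instead of 2, and 1053 to 2864 of all tested genes were called. The 3 fits without a GalNAc-siRnf10 mouse called 0 proteasome genes, among 1053 to 1128 calls in all, and the fit without GalNAc-siNC mouse 3 called 6. Limma voom with sample quality weights called 4 of the other pathway genes. Psmc1 turned to a log2 fold change of -0.042 with the adjustment for GC content and length, without and with the replicate block, and ranged from -0.0046 to 0.11 with each mouse left out. Psmc4 ranged from -0.11 to 0.015 with each mouse left out. These causes were not tested. The mice share replicate numbers in the labels but are different animals, and same-numbered mice did not deviate together (correlations -0.00099, 0.027 and -0.034), so the numbers were not taken as pairs. With the replicate block, 0 proteasome genes were called higher and 1 lower, Psmd3. With 3 mice in each group, differences as small as those of most members lie within the intervals of the fit.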
